A study of Danio rerio with 4 samples.

Results

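The genes examined here build and run membrane coats and endosomal sorting in the cell: the clathrin chains, the adaptors, the sorting nexins and the Vps genes. They were found by name. A row of the deposited tables was taken where its Ensembl identifier carries a symbol that starts with clta, cltb, cltc, AP1 to AP4 followed by a subunit letter, epn, eps15, ehd, snx or vps, in upper or lower case. This gave 117 genes of the 28346 rows, 25522 of which have an Ensembl identifier. In the classes used here 5 encode clathrin chains, 32 were counted as adaptors and 75 as sorting genes. The other 5 carry a matching name and were placed in none of these classes.

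The cells came from the caudal hematopoietic tissue of wild-type, untreated zebrafish larvae at 5 days post fertilisation, the bed of vessels in the tail that houses blood progenitors at this age. All larvae were Tg(kdrl:GFP;lyve1b:DsRed), so that GFP is driven by kdrl, which encodes an endothelial growth factor receptor, and DsRed by lyve1b, which encodes a receptor for hyaluronan found on veins and lymphatics. Vein endothelium was sorted as positive for both reporters and non-vein endothelium as positive for GFP alone, with 2 libraries in each group. The gates therefore rest on reporter protein, and lymphatic cells that carry both reporters would fall in the vein group. The labels do not say how many larvae were pooled or whether replicates came from separate pools, so the p-values rest on the spread among these 4 libraries, and that spread may be technical.

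Cargo is taken up when adaptors such as AP-2, on the inner face of a membrane, bind the tails of receptors and gather clathrin. The heavy and light chains of clathrin form a cage that bends the membrane into a vesicle. AP-2 works at the plasma membrane, AP-1 and AP-4 at the trans-Golgi network and endosomes and AP-3 on the route to lysosome-related organelles. Once inside, cargo is either drawn into tubules for recycling, by sorting nexins, EHD ATPases and the retromer and retriever complexes, or sent to the lysosome, by the ESCRT machinery and the HOPS tether. Vein endothelium of the zebrafish tail is known for its scavenger function, in which stabilin receptors take up waste macromolecules and particles from the blood.

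The libraries held 15672159 and 16409447 estimated counts in vein and 18047152 and 18862102 in non-vein, so that 0 counts in a library allow up to 0.159 to 0.191 CPM (counts scaled to library size), for counting error only. The vein libraries correlated at r = 0.882 over log2 CPM, the non-vein libraries at 0.916 and libraries of different groups at 0.718 to 0.803, across genes, which are not independent replicates. All 9 vein and lymphatic markers measured were higher in both vein libraries than in either non-vein library, and 6 of them passed the test described below. Both counts include lyve1b, whose reporter set the vein gate, so its rise is no independent sign of vein identity. The summed level of the 9 markers was 2842 and 2384 FPKM (fragments scaled to transcript length and library size) in vein against 124 and 374 in non-vein. Non-vein library 2 thus held more of them than library 1. The 9 endothelial markers summed to 2641 and 2155 FPKM in vein and 733 and 967 FPKM in non-vein, with none at 0. Of these 9 markers 5 passed as higher in vein and 0 as lower. Among the 5 was kdrl, whose reporter set the GFP gate of both groups. It held most of the counts of these markers in each library, with 10500 and 7933 CPM in vein against 1998 and 2956 CPM in non-vein. The median log2 fold of the 9 markers was 1.38, with 8 folds above 0 and 1 below, that of FLI1 (log2 -0.38). Markers of other cells moved with the groups too. Of the 12 leukocyte genes 7 were tested and 4 were lower in vein, with sums of 184 and 984 FPKM in vein and 2191 and 1906 FPKM in non-vein, while csf1ra and il2rb had no count in any library. The 10 cell cycle genes stood at 244 and 192 FPKM in vein and 2167 and 1907 FPKM in non-vein, with 9 lower. The 7 muscle genes stood at 2003 and 5300 FPKM in vein and 578 and 1469 FPKM in non-vein, with 1 higher. The 9 mural and stromal genes stood at 843 and 779 FPKM in vein and 269 and 299.6 FPKM in non-vein. Of 7 tested 1 was higher and 1 lower, with 4 folds above 0 and 3 below. The higher one was TAGLN (ENSDARG00000033466), which held most of the counts of this list in each library. It had 885 and 810 CPM in vein against 276 and 305 CPM in non-vein. The lower one was NOTCH3, with 0 counts in both vein libraries and 106 and 232 counts in non-vein. PDGFRB had 1 and 0 counts in vein and 4 and 14 in non-vein, and CSPG4 had no count in any library. The 9 arterial genes stood at 205 and 235 FPKM in vein and 1004 and 782 FPKM in non-vein, with 1 higher and 3 lower. The lower ones were HEY2 and both CXCR4 genes. CXCR4 (ENSDARG00000041959) had 15.1 and 48.1 CPM in vein against 1377 and 916 CPM in non-vein. The higher one was dll4 (log2 1.48), and 4 of the 9 arterial folds were above 0 and 5 below. No erythroid, epidermal or neural gene passed, but the vein libraries differed in them. The epidermal genes summed to 19.7 and 214 FPKM in vein and 28.5 and 61.5 FPKM in non-vein. The neural genes summed to 0.265 and 21.3 FPKM in vein and 4.76 and 4.54 FPKM in non-vein. The erythroid genes summed to 1061 and 1758 FPKM in vein and 1820 and 1323 FPKM in non-vein. The part of these differences in the results below was not tested. In such sorted pools, fewer cells of a type and less RNA per cell cannot be told apart.

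Single genes of the clathrin coat, of the AP-1 and AP-2 adaptors, of the EHD family and of the sorting nexins were higher in vein endothelium, while most genes of these families did not pass the test and none passed as lower. After the filter on low counts 107 of them could be tested, and 12 rose in vein (edgeR's quasi-likelihood test over all genes, Benjamini-Hochberg adjusted p under 0.05). These were CLTA, cltca, AP1B1, 1 of the AP2M1 genes, 1 of the EHD1 genes, ehd4, 1 of the SNX1 genes, SNX2, SNX3, SNX5, SNX7 and 1 of the SNX9 genes. That is 11.2% of those tested, where 4.11% of all 15953 genes tested rose in vein. For lower genes it was 0 of 107, where 7.33% of all genes fell. The median log2 fold was 0.61 over the 107 genes and 0.01 over all tested genes, and 78 of the 107 folds were above 0.

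The choice of test bears on the genes that did not pass. At an unadjusted p under 0.05 there were 27 higher and 4 lower in edgeR, or 25.2% and 3.74% of the 107, where 12.3% of all tested genes were higher and 17.7% lower. In both directions together that is 29% of the 107 and 30.1% of all. These shares of all tested genes are the ones to set beside the class counts below. At the adjusted p they were 4.11% higher and 7.33% lower. The 4 were ap1m3, ap1s2, SNX10 and VPS51. DESeq2 called 23 higher and 4 lower and limma-voom 17 higher and 1 lower, each with all 12 genes among the higher ones. These methods also called more over all genes. DESeq2 called 1676 higher and 2371 lower and limma-voom 1026 and 1508, beside 656 and 1170 in edgeR. The 12 genes kept a positive fold with each library left out in turn. In each of the 12 both vein libraries lay above both non-vein libraries, so leaving out 1 library could hardly turn the sign. A fit without 1 library leaves 1 library in a group and assumes that it varies like the other group. A call kept there is therefore no support for a difference. Without vein library 1 there were 7 higher. The genes that passed were abundant ones, with a median over genes of 51.3 FPKM against 5.36 FPKM for the other tested genes, and the median standard error of the log2 fold was 0.31 for them and 0.61 for the others. A gene of low level that missed the threshold is therefore not shown to be unchanged.

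**Figure D1:**
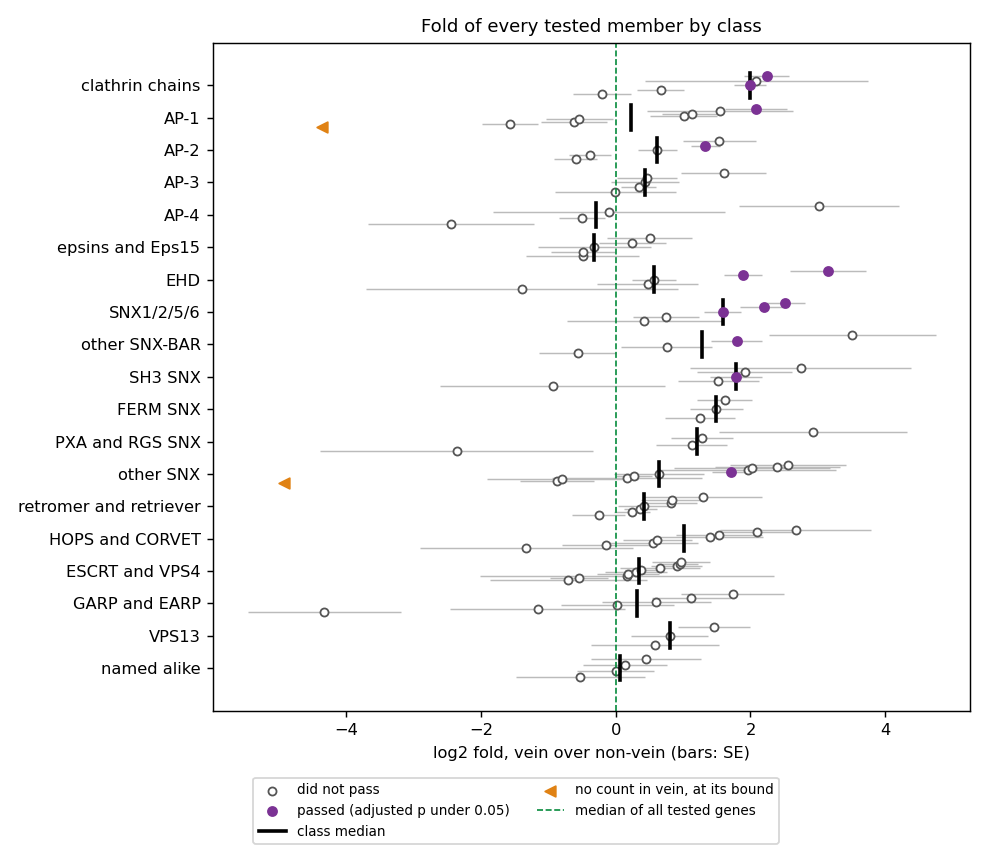
Log2 fold of vein over non-vein for each of the 107 tested genes (points, with bars of 1 standard error) by class, with the class median as a black stroke and the median of all tested genes, 0.01, as a dashed line. Filled points are the 12 genes that passed the test, all right of 0, and triangles are ap1m3 and SNX10, which had no count in vein and are drawn at the bound that 3 counts over the group allow.

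Transcripts of 2 of the 5 clathrin chain genes stood at a higher level in vein. CLTA, a clathrin light chain and the most abundant of the 117 genes, had 1612 and 1167 CPM in the vein libraries against 330 and 366 CPM in the non-vein libraries. It rose 4.0-fold (log2 2.0, SE 0.24; edgeR, adjusted p = 0.0151; higher in 2 of 2 vein libraries than in either non-vein library). cltca, a heavy chain gene, had 475 and 486 CPM in vein against 72.1 and 131 CPM in non-vein. The vein libraries of cltca were nearly equal while the non-vein ones were apart, and the rise was 4.74-fold (log2 2.24, SE 0.33; edgeR, adjusted p = 0.0191). Both calls held in all 16 alternative settings. Genes that share a name or a close sequence, such as the pairs named AP2M1, EHD1 and SNX1 or the heavy chains, can also share reads, so the split of counts between them is uncertain. Nothing in the labels gives the strand setting of the counting.

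The other chain genes did not pass. CLTB, the second light chain gene, had 73.3 and 95.7 CPM in vein against 40.7 and 65.8 CPM in non-vein, with a log2 fold of 0.67 and a 95% interval of -0.19 to 1.52. CLTC, the other heavy chain gene, had 19.8 and 16.0 CPM in vein against 22.9 and 18.3 CPM in non-vein, and its groups overlapped (log2 -0.20, interval -1.29 to 0.88). The upper end of that interval lies below the lower end of the interval of cltca, 1.42 to 3.07. These intervals are per gene and from the same libraries, and the difference between the genes was not tested. cltcl1, a further heavy chain gene, was near the floor with 8 and 121 counts in vein and 29 and 7 in non-vein.

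The make-up of the heavy chain transcripts also differed between the libraries. On the FPKM scale, which allows levels of different genes to be set side by side, cltca was 9.08 and 17.2 times CLTC in the vein libraries and 1.90 and 2.49 times CLTC in the non-vein libraries. It took 90.0% and 92.7% of the summed heavy chain level in vein and 64.3% and 71.1% in non-vein. The FPKM of CLTC did not follow its counts. In vein 303 and 251 counts went with 7.94 and 4.20 FPKM, and in non-vein 421 and 361 counts with 6.015 and 8.53 FPKM. The size of the ratios to CLTC, and their spread within a group, thus depend on the scale. CLTA was 36.6 and 20.1 times CLTB in vein and 13.5 and 8.94 times CLTB in non-vein. For each pair the groups were separate, but with 2 libraries in each an exact two-sided permutation test of such a ratio cannot go below p = 0.33, and no test of the ratios was run. CLTA alone took 38.4% and 32.8% of the summed FPKM of the 117 genes in vein and 20.4% and 19.8% in non-vein.

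**Figure D2:**
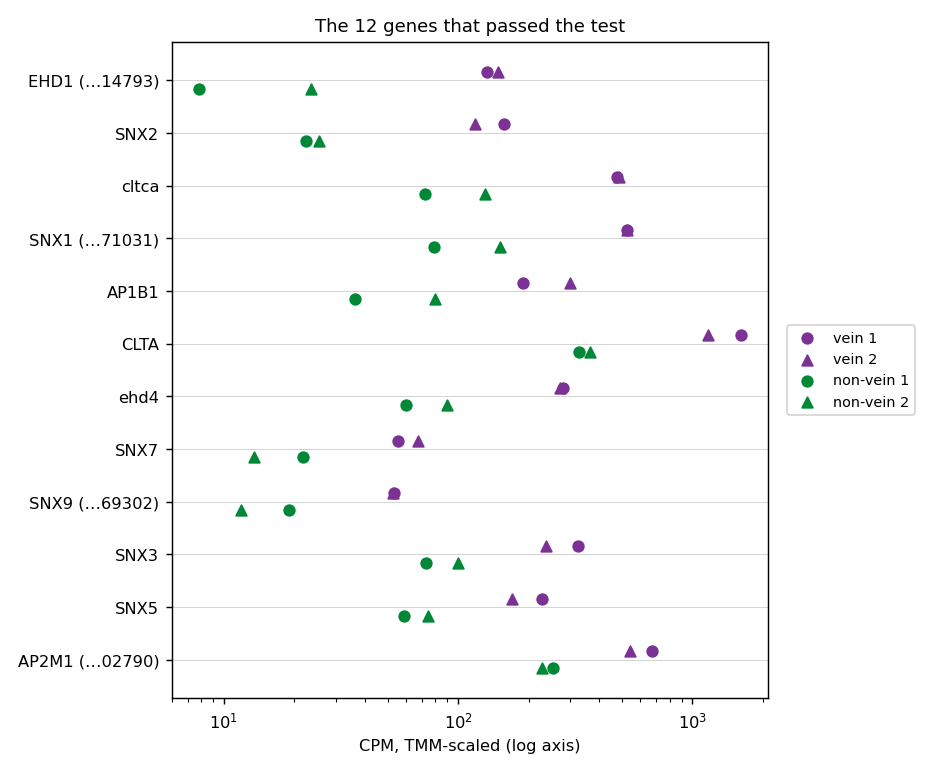
Level in CPM on a log axis of the 12 genes that passed the test, in each library (circles for library 1, triangles for library 2), ordered by fold. Both vein libraries lie right of both non-vein libraries for each gene, from 3.15 on the log2 scale for EHD1 (ENSDARG00000014793) to 1.33 for AP2M1 (ENSDARG00000002790).

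The AP-2 adaptor, which links plasma membrane receptors to clathrin, had 1 of 5 genes higher and 0 lower, with a median log2 fold of 0.62. Its medium subunit, which binds tyrosine-based signals in receptor tails, is encoded by a pair of genes that share the name AP2M1. ENSDARG00000002790 had 672 and 542 CPM in vein against 255 and 228 CPM in non-vein, a 2.52-fold rise (log2 1.33, SE 0.22; edgeR, adjusted p = 0.0221). The call was lost without vein library 1 (log2 1.16; edgeR, adjusted p = 0.0705). Its paralog ENSDARG00000033899 had 46.7 and 38.6 CPM in vein against 75.9 and 52.6 CPM in non-vein, and the log2 fold of -0.59 did not pass (interval -1.39 to 0.20). The intervals of the paralogs do not meet, as that of the first starts at 0.79. They are per gene and from the same libraries, and the difference between the paralogs was not tested. In FPKM the first was 11.8 and 11.6 times the second in vein and 2.81 and 3.67 times in non-vein.

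AP2A1, the large alpha subunit, which recognises dileucine signals with the sigma subunit, had 106 and 50.1 CPM in vein against 17.1 and 36.9 CPM in non-vein. Its vein libraries lay far apart, and the log2 fold of 1.54 did not pass (edgeR, adjusted p = 0.124). AP2S1, the small sigma subunit, had 66.8 and 53.9 CPM in vein against 39.6 and 39.1 CPM in non-vein (log2 0.62, interval -0.10 to 1.33). AP2B1, the beta subunit that binds clathrin, had 32.6 and 30.4 CPM in vein and 37.2 and 44.8 CPM in non-vein (log2 -0.38, interval -1.16 to 0.40). The subunits of AP-2 thus covered log2 folds from -0.59 to 1.54.

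AP-1, which packs cargo into clathrin vesicles at the trans-Golgi network and endosomes, had 1 of 8 tested genes higher and 0 lower (median log2 0.23). AP1B1, its large beta subunit, had 189 and 302 CPM in vein against 36.1 and 79.8 CPM in non-vein. It rose 4.23-fold (log2 2.08, SE 0.46; edgeR, adjusted p = 0.0448), the largest adjusted p among the 12 genes. Its call was lost without vein library 2 (log2 1.70; edgeR, adjusted p = 0.0782). With non-vein library 2 left out, its log2 fold was 2.76.

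The small sigma subunits of AP-1 were split. ap1s2 had 27.4 and 59.1 CPM in vein against 139 and 118 CPM in non-vein, with both vein libraries below both non-vein ones. Its log2 fold of -1.57 (interval -2.61 to -0.54) did not pass in edgeR (adjusted p = 0.0676) and did in 7 of the 16 alternatives, among them DESeq2 (adjusted p = 0.00338). ap1s3b had 54.0 and 38.4 CPM in vein against 14.7 and 27.4 CPM in non-vein, with a log2 fold of 1.13 (edgeR, adjusted p = 0.155). In FPKM ap1s3b was 3.10 and 0.99 times ap1s2 in vein and 0.17 and 0.36 times in non-vein. Of the 7 leukocyte genes tested 4 were lower in vein beside ap1s2, while lyz, ptprc and SPI1 did not pass (log2 -1.01, -4.02 and 0.96), and their part in its values was not tested. The medium subunit gene ap1m3 had no count in vein and 35 and 41 counts in non-vein, a level at least 20.6-fold lower in vein when 3 counts over the group are set as the floor (edgeR, adjusted p = 0.0764). AP1M1, the main medium subunit gene, had 25.1 and 51.7 CPM in vein against 14.8 and 23.4 CPM in non-vein and did not pass (log2 1.01). AP1G1, AP1G2 and AP1S1 did not pass either, with log2 folds of -0.54, 1.55 and -0.62.

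**Figure D3:**
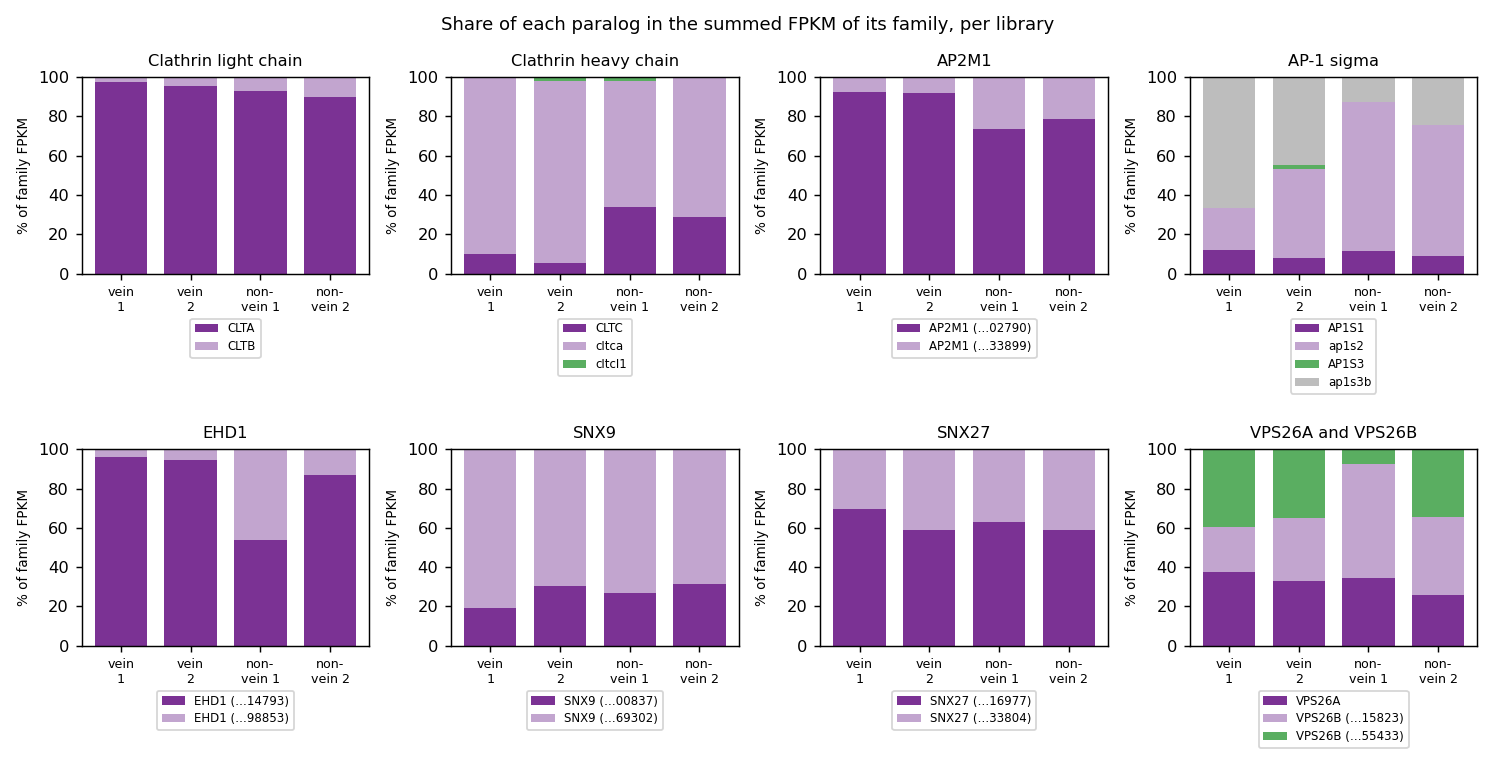
Share of each gene in the summed FPKM of its family in each library, for 8 families (bars stack to 100%, vein libraries left of non-vein ones). cltca and AP2M1 (ENSDARG00000002790) take larger shares in both vein libraries than in either non-vein library, while the shares within SNX9 and SNX27 overlap between the groups.

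Adaptors of other routes had no gene that passed. In AP-3, 0 of 5 tested genes were higher or lower in edgeR, DESeq2 or limma-voom, with 1 at an unadjusted p under 0.05, and the median log2 fold was 0.44. Its small subunit gene ap3s2 had 82.7 and 72.9 CPM in vein against 64.7 and 58.2 CPM in non-vein (log2 0.34, interval -0.30 to 0.98), and its beta subunit gene AP3B1 had the highest fold of the class, with 14.1 and 13.7 CPM in vein against 5.49 and 3.66 CPM in non-vein (log2 1.60; edgeR, adjusted p = 0.159). AP3M1 and AP3M2, the medium subunits, had log2 folds of 0.44 and -0.01. In AP-4, 0 of 4 passed in edgeR, 1 had an unadjusted p under 0.05 and DESeq2 called AP4E1. The folds lay on both sides of 0: AP4E1 had 6.73 and 8.80 CPM in vein and 0.27 and 1.63 CPM in non-vein, and AP4B1 had 0.39 and 2.42 CPM in vein and 4.24 and 11.2 CPM in non-vein. AP4M1 had 1 and 183 counts in the vein libraries and 140 and 98 in non-vein. Its log2 fold of -0.10 hid this spread, being 0.89 without vein library 1 and -6.45 without vein library 2. AP4S1 was the most abundant AP-4 gene, with 34.3 and 34.6 CPM in vein against 38.6 and 58.7 CPM in non-vein.

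Epsins and Eps15 bind ubiquitinated cargo and help to bend the membrane at coated pits. None of the 5 tested genes passed, and 0 had an unadjusted p under 0.05. Their log2 folds lay between -0.49 for EPS15L1 and 0.50 for EPN2, with a median of -0.32. EPS15 had 43.0 and 18.6 CPM in vein and 24.0 and 27.9 CPM in non-vein, and epn1a had 21.2 and 12.8 CPM in vein and 26.9 and 20.5 CPM in non-vein. In both genes the groups overlapped. The 95% intervals of the log2 fold ran from -1.66 to 0.69 for epn1a and from -0.98 to 1.48 for EPS15. DESeq2 and limma-voom called 0 of these genes.

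EHD proteins are ATPases that shape recycling tubules and the necks of caveolae, and they gave the largest rise among the 12 genes. EHD1 (ENSDARG00000014793), a regulator of exit from the recycling endosome, had 132 and 148 CPM in vein against 7.82 and 23.6 CPM in non-vein, an 8.90-fold rise (log2 3.15, SE 0.56; edgeR, adjusted p = 0.0272). Non-vein library 1 was well under library 2, and the log2 fold was 4.16 without non-vein library 2 and 2.57 without library 1. ehd4, which acts at early endosomes, had 282 and 272 CPM in vein against 59.8 and 89.7 CPM in non-vein and rose 3.70-fold (log2 1.89, SE 0.28; edgeR, adjusted p = 0.0187). The second EHD1 gene, ENSDARG00000098853, had 6.46 and 10.2 CPM in vein and 7.82 and 4.17 CPM in non-vein, with overlapping groups. EHD2, the caveolar member (ENSDARG00000040362), had 105 and 109 CPM in vein against 53.6 and 90.8 CPM in non-vein and did not pass (log2 0.57, interval -0.24 to 1.38). EHD3 had at most 73 counts in a library.

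Sorting nexins bind phosphoinositides of endosomes through a PX domain, and those with a BAR domain also sense and form curved tubules. SNX1, SNX2, SNX5 and SNX6 pair with each other into the coat of tubules that carry cargo back to the Golgi and the cell surface. SNX2 had 157 and 118 CPM in vein against 22.4 and 25.6 CPM in non-vein and rose 5.72-fold (log2 2.52, SE 0.29; edgeR, adjusted p = 0.0149, the smallest of the 12). SNX1 (ENSDARG00000071031) had 527 and 529 CPM in vein against 78.6 and 151 CPM in non-vein and rose 4.59-fold (log2 2.2, SE 0.35; edgeR, adjusted p = 0.0216). SNX5 had 229 and 171 CPM in vein against 58.7 and 74.4 CPM in non-vein, a 3.0-fold rise (log2 1.59, SE 0.28; edgeR, adjusted p = 0.0256). The call of SNX5 was lost when vein library 1 (edgeR, adjusted p = 0.0715) or non-vein library 1 (edgeR, adjusted p = 0.0502) was left out, and with the replicate number as a block (edgeR, adjusted p = 0.0523). SNX6, which can stand in for SNX5, had 17.8 and 33.5 CPM in vein against 16.4 and 14.4 CPM in non-vein and did not pass (log2 0.74, interval -0.47 to 1.96). The second SNX1 gene, ENSDARG00000103529, stayed under 7 CPM with overlapping groups. The class had 3 of 5 genes higher and 0 lower, with a median log2 fold of 1.59.

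Retromer, the trimer of VPS26, VPS29 and VPS35 that selects cargo for such tubules, had no gene that passed. With the retriever genes VPS26C and VPS35L, 0 of 7 were higher or lower in edgeR, DESeq2 or limma-voom, 0 had an unadjusted p under 0.05, and the median log2 fold was 0.42. VPS35, the scaffold of the trimer, had 41.5 and 27.9 CPM in vein and 29.2 and 22.7 CPM in non-vein, so that the groups overlapped (log2 0.42, interval -0.54 to 1.38). VPS29 had 157 and 134 CPM in vein against 99.9 and 126 CPM in non-vein (log2 0.37, interval -0.25 to 0.98). VPS26A had 35.0 and 27.4 CPM in vein against 18.1 and 17.1 CPM in non-vein (log2 0.82, interval -0.13 to 1.77). The pair named VPS26B gave the lowest and the highest fold of the class. ENSDARG00000015823 had 19.2 and 24.1 CPM in vein and 27.9 and 23.7 CPM in non-vein (log2 -0.25, interval -1.22 to 0.71). ENSDARG00000055433 had 22.5 and 17.5 CPM in vein against 2.34 and 14.0 CPM in non-vein (log2 1.29, interval -0.92 to 3.49), and its wide interval covers the folds of SNX1, SNX2 and SNX5. VPS26C, which stands for VPS26 in retriever, was the most abundant of the class, with 331 and 243 CPM in vein and 276 and 208 CPM in non-vein (log2 0.25, interval -0.41 to 0.90). In summed FPKM the SNX1, SNX2, SNX5 and SNX6 genes were 1.77 and 1.85 times the VPS26A, VPS26B, VPS29 and VPS35 genes in vein and 0.55 and 0.62 times in non-vein. The ratio is formed within each library, so no scaling between libraries enters it.

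Among the other nexins with a BAR domain, 1 of 4 tested was higher. SNX7, which acts with SNX4 in recycling and autophagy, had 55.3 and 67.4 CPM in vein against 21.8 and 13.5 CPM in non-vein and rose 3.48-fold (log2 1.80, SE 0.38; edgeR, adjusted p = 0.0397). The call of SNX7 was lost without vein library 1 (edgeR, adjusted p = 0.0617), without vein library 2 (0.0783) and without non-vein library 2 (0.0938), and with the replicate number as a block (0.0729). SNX8 (ENSDARG00000074842) had the highest log2 fold of all, 3.51, with 78.8 and 86.9 CPM in vein against 0.60 and 13.9 CPM in non-vein, and it did not pass (SE 1.24; edgeR, adjusted p = 0.124). The spread within non-vein was the larger part of its error, and without either non-vein library it passed, with log2 folds of 2.58 and 7.09 (edgeR, adjusted p = 0.0181 without library 1 and 0.00188 without library 2). In those fits the lone non-vein library was assumed to vary like the vein libraries, so the spread that kept SNX8 from passing was no longer in them, and they are no support for a difference. SNX4 and SNX30 had overlapping groups.

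SNX9, SNX18 and SNX33 carry an SH3 domain and join dynamin at coated pits. SNX9 (ENSDARG00000069302) had 53.2 and 52.7 CPM in vein against 19.0 and 11.8 CPM in non-vein and rose 3.44-fold (log2 1.78, SE 0.38; edgeR, adjusted p = 0.0415). It passed in 10 of the 16 alternatives and was lost when any 1 of the 4 libraries was left out, with adjusted p from 0.051 without non-vein library 1 to 0.107 without non-vein library 2 (edgeR), and with the replicate number as a block (edgeR, adjusted p = 0.0670). Its paralog ENSDARG00000000837 had 13.1 and 23.8 CPM in vein against 7.23 and 5.59 CPM in non-vein and did not pass (log2 1.53). The gene that passed took 80.7% and 69.7% of the SNX9 FPKM in vein and 73.1% and 68.6% in non-vein, so the shares overlapped. SNX18 (ENSDARG00000067713) had 33.5 and 26.9 CPM in vein against 3.48 and 12.6 CPM in non-vein (log2 1.91; edgeR, adjusted p = 0.136). SNX33 stood at 9.21 CPM in vein library 1 and under 1 CPM in the other libraries.

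SNX17 and SNX27 read sorting signals of receptors through a FERM domain and route them to retriever and retromer. All 3 genes were higher in both vein libraries than in either non-vein library, as were 29% of all tested genes. In edgeR 0 of 3 passed, with 2 higher at an unadjusted p under 0.05, where 12.3% of all tested genes were. SNX17 had 72.8 and 45.7 CPM in vein against 15.5 and 23.1 CPM in non-vein (log2 1.62, interval 0.61 to 2.62; edgeR, adjusted p = 0.0595). SNX27 (ENSDARG00000016977) had 41.5 and 30.8 CPM in vein against 12.0 and 13.6 CPM in non-vein (log2 1.50, interval 0.51 to 2.48; edgeR, adjusted p = 0.0684). Its paralog ENSDARG00000033804 had 17.6 and 21 CPM in vein against 6.96 and 9.30 CPM in non-vein (log2 1.25). DESeq2 called SNX17 and the first SNX27 gene, at adjusted p = 0.00466 and 0.0116.

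Of the 11 tested nexins outside these groups, 1 was higher. SNX3, which brings retromer to early endosomes, had 326 and 238 CPM in vein against 72.9 and 99.7 CPM in non-vein and rose 3.27-fold (log2 1.71, SE 0.29; edgeR, adjusted p = 0.0236), a call lost without vein library 1 (edgeR, adjusted p = 0.0605). SNX12, its close relative, had 90.4 and 79.3 CPM in vein and 63.4 and 77.3 CPM in non-vein (log2 0.27, interval -0.38 to 0.92). SNX3 was 6.84 and 5.80 times SNX12 in FPKM in vein and 1.96 and 2.51 times in non-vein. snx22 had 103 and 113 CPM in vein against 4.51 and 32.0 CPM in non-vein and did not pass (log2 2.56; edgeR, adjusted p = 0.111). SNX10, a gene of osteoclasts and macrophages in mammals, had no count in vein and 54 and 58 counts in non-vein. It was thus at least 30.4-fold lower in vein against the floor of 3 counts over the group, did not pass in edgeR (adjusted p = 0.0654) and did in DESeq2 (adjusted p = 0.00551). The leukocyte genes, 4 of 7 lower, summed to 184 and 984 FPKM in vein and 2191 and 1906 FPKM in non-vein. The lower ones were CORO1A, LCP1, rac2 and IKZF1, while SPI1, lyz and ptprc did not pass (log2 0.96, -1.01 and -4.02). The gene csf1ra had no count in any library, and marco had 22 counts in non-vein library 2 alone. The part of the leukocyte genes in the values of SNX10 was not tested. Of the nexins with PXA and RGS-like domains, 0 of 4 tested passed in edgeR, DESeq2 or limma-voom, with 1 at an unadjusted p under 0.05. SNX14 was the most abundant of them, with 28.7 and 34.4 CPM in vein against 16.2 and 9.76 CPM in non-vein (log2 1.28; edgeR, adjusted p = 0.126). SNX25 had 16.1 and 28.7 CPM in vein against 11.4 and 9.10 CPM in non-vein (log2 1.13; edgeR, adjusted p = 0.230). SNX13 had the highest fold of the class, with 53 and 125 counts in vein against 3 and 26 counts in non-vein (log2 2.93), and SNX19 (ENSDARG00000079931) the lowest, with 18 and 0 counts in vein against 84 and 30 counts in non-vein (log2 -2.36). Both rested on few reads.

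The Vps complexes that lead to the lysosome had no gene that passed in edgeR. HOPS and CORVET tether endosomes to each other and to the lysosome. Their class of 8 genes was counted with VPS33B included. In it 0 genes were higher or lower, with 1 at an unadjusted p under 0.05 and a median log2 fold of 1.01. The 1 gene was VPS39, a HOPS subunit, with 14.0 and 19.1 CPM in vein against 3.64 and 4.12 CPM in non-vein (log2 2.09, interval 0.58 to 3.60; edgeR, adjusted p = 0.0827). VPS18, a core subunit of both tethers, had the highest fold, with 52.6 and 46.8 CPM in vein against 0.98 and 14.6 CPM in non-vein (log2 2.67; edgeR, adjusted p = 0.18), and DESeq2 called both genes. VPS33A, which binds SNARE proteins, had 17.6 and 23.6 CPM in vein against 4.18 and 10.1 CPM in non-vein (log2 1.53). VPS33B, the subunit of a separate tether, had 1.24 and 0.83 CPM in vein and 0.33 and 4.88 CPM in non-vein.

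The ESCRT machinery sorts ubiquitinated receptors into the vesicles of multivesicular bodies, and VPS4 ATPases take it apart. None of these 10 genes passed in edgeR, 1 had an unadjusted p under 0.05, and the median log2 fold was 0.34. VPS4B had 68.4 and 73.6 CPM in vein against 36.7 and 36.9 CPM in non-vein (log2 0.95, interval 0.28 to 1.62; edgeR, adjusted p = 0.0785). VPS28, a subunit of ESCRT-I and the most abundant of the class, had 162 and 189 CPM in vein against 122 and 148 CPM in non-vein (log2 0.38, interval -0.21 to 0.96). VPS37A and vps37c, further ESCRT-I subunits, had log2 folds of 0.90 and 0.97. VPS4A, the other ATPase gene, had 12 and 118 counts in vein and 121 and 137 in non-vein, with vein library 1 far below the other 3 libraries. DESeq2 called VPS4B (adjusted p = 0.0351) and no other gene of the class.

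GARP and EARP tether vesicles from endosomes at the trans-Golgi network and at recycling endosomes, and 0 of their 6 genes passed in edgeR, with 1 at an unadjusted p under 0.05 and a median log2 fold of 0.31. VPS51, the subunit that both share, had 0.26 and 0.32 CPM in vein against 5.81 and 6.10 CPM in non-vein. VPS51 thus rested on few reads. With 4 and 5 counts in vein against 107 and 120 in non-vein the groups were separate and the log2 fold was -4.33 (SE 1.14; edgeR, adjusted p = 0.0667; DESeq2, adjusted p = 0.00187). VPS53, another shared subunit, had 0.39 and 4.85 CPM in vein against 6.74 and 4.98 CPM in non-vein and did not pass (log2 -1.16). Both genes with the name VPS50, the EARP subunit, were higher in both vein libraries, with log2 folds of 1.12 and 1.74 that did not pass. VPS52 and VPS54 had overlapping groups. DESeq2 called VPS51 and no other gene of the class. The VPS13 genes, which encode lipid transfer proteins at organelle contacts, had 0 of 3 that passed in edgeR, DESeq2 or limma-voom, 1 at an unadjusted p under 0.05 and log2 folds of 0.58 to 1.46, the highest being VPS13A with 20.4 and 17.3 CPM in vein against 6.14 and 7.57 CPM in non-vein. VPS13C had 13.8 and 13.5 CPM in vein against 8.96 and 6.66 CPM in non-vein, and VPS13D, the lowest, 46 and 105 counts in vein and 48 and 76 counts in non-vein. The genes ap1ar, VPS45, VPS72 and VPS9D1, which are no subunits of these complexes, had log2 folds of -0.52 to 0.45.

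Per class, the summed FPKM differed most between the groups for the SNX1, SNX2, SNX5 and SNX6 class, the coat and the EHD genes. It differed least for AP-1 and the genes placed outside the coat, adaptor and sorting classes. The clathrin chains summed to 1863 and 1355 FPKM in vein against 416 and 482 FPKM in non-vein, a ratio of means of 3.58. CLTA alone had 1736 and 1216 FPKM in vein and 371 and 407 FPKM in non-vein. The sums and ratios of the coat thus mostly give the level of this 1 gene. The SNX1, SNX2, SNX5 and SNX6 class summed to 373 and 323 FPKM in vein against 76.1 and 108 FPKM in non-vein (ratio 3.78), and the EHD class to 217 and 216 FPKM in vein against 53.3 and 88.9 FPKM in non-vein (ratio 3.05). AP-2 had a ratio of 1.82, AP-1 of 1.05, AP-4 of 0.67, retromer and retriever of 1.18 and ESCRT with VPS4 of 1.25. Taken by branch, the coat was 2.62 and 2.13 times the adaptors in vein and 0.81 and 0.88 times in non-vein. The coat had 2 of 5 genes higher, the adaptors 2 of 27 and the sorting genes 8 of 71, with median log2 folds of 2.0, 0.25 and 0.80, beside 4.11% and 0.01 for all tested genes. The median of the coat is the fold of CLTA and leans on cltcl1, which was near the floor and had a log2 fold of 2.09. With at least 50 counts in 2 libraries the coat median was 1.37. Without vein library 2 the median was 0.46 for the coat and 0.03 for the adaptors. The difference between the branches was not tested.

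**Figure D4:**
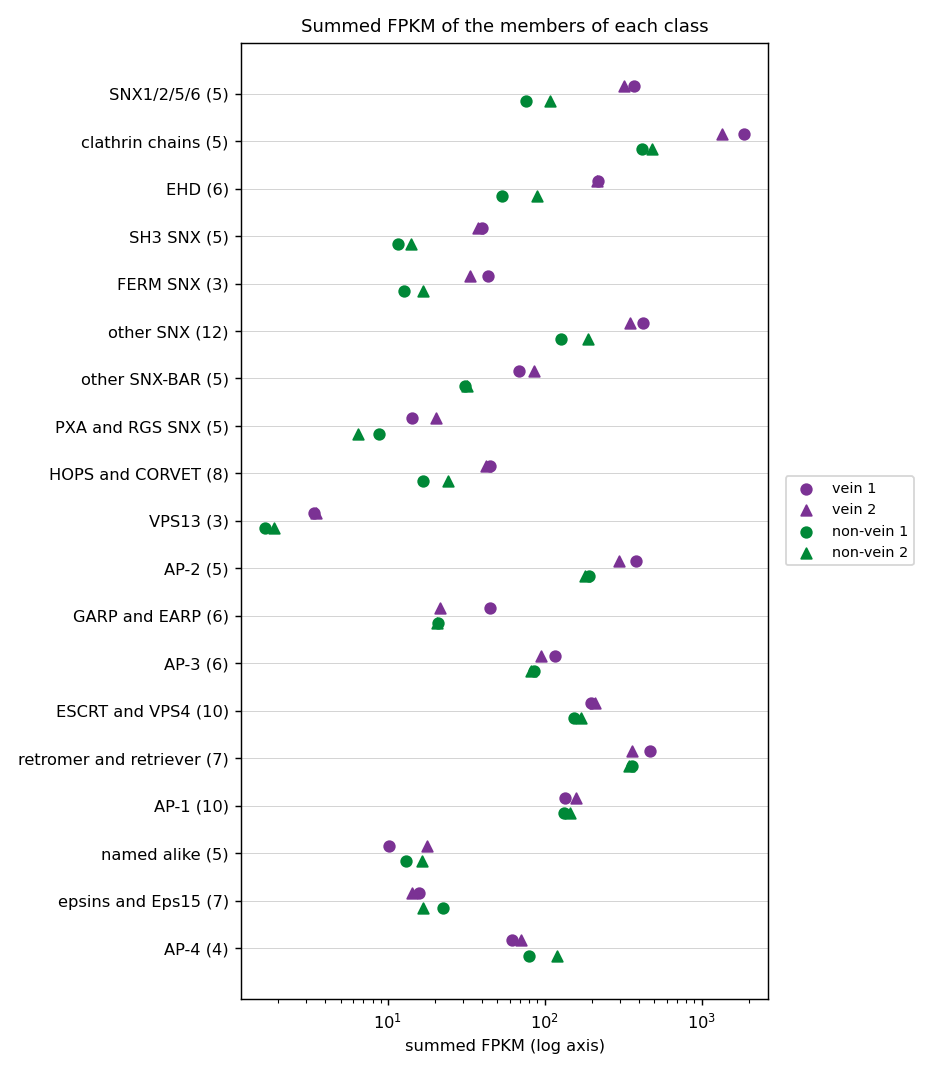
Summed FPKM of the members of each class on a log axis in each library (circles for library 1, triangles for library 2, number of genes in brackets), ordered by the ratio of vein to non-vein means. The ratio runs from 3.78 for the SNX1, SNX2, SNX5 and SNX6 class to 0.67 for AP-4.

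Many more genes were separate between the groups than passed the test. In 55 of the 107 tested genes both vein libraries were above both non-vein libraries, where 29% of all tested genes were, and in 12 both were below, where 33.1% were. Of all 107, 14 were over 4-fold higher in non-vein library 2 than in library 1 (with 0.1 CPM added to each), a limit set after the values were seen. That is 13.1% beside 9.81% of all tested genes. In 10 of these 14 the vein libraries were above both, and 0 of the 14 passed the test. The 14 were chosen by a gap within non-vein that itself enters the error of the test. That 0 passed is therefore no result about these genes. Neither share was counted among all tested genes past the same limit. Counts in non-vein libraries 1 and 2 were 18 and 287 for VPS18, 11 and 273 for SNX8 (ENSDARG00000074842), 7 and 155 for snx15, and 29 and 204 for SNX29. The vein and lymphatic markers were also higher in non-vein library 2, in 9 of 9 genes, and their part in these values was not tested. Of all tested genes 52.3% were higher in non-vein library 2 than in library 1, and of the 107 genes 59.8% were. Only SNX1 (ENSDARG00000103529) was over 4-fold lower in non-vein library 2, and the share of all tested genes past that limit was not counted.

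**Figure D5:**
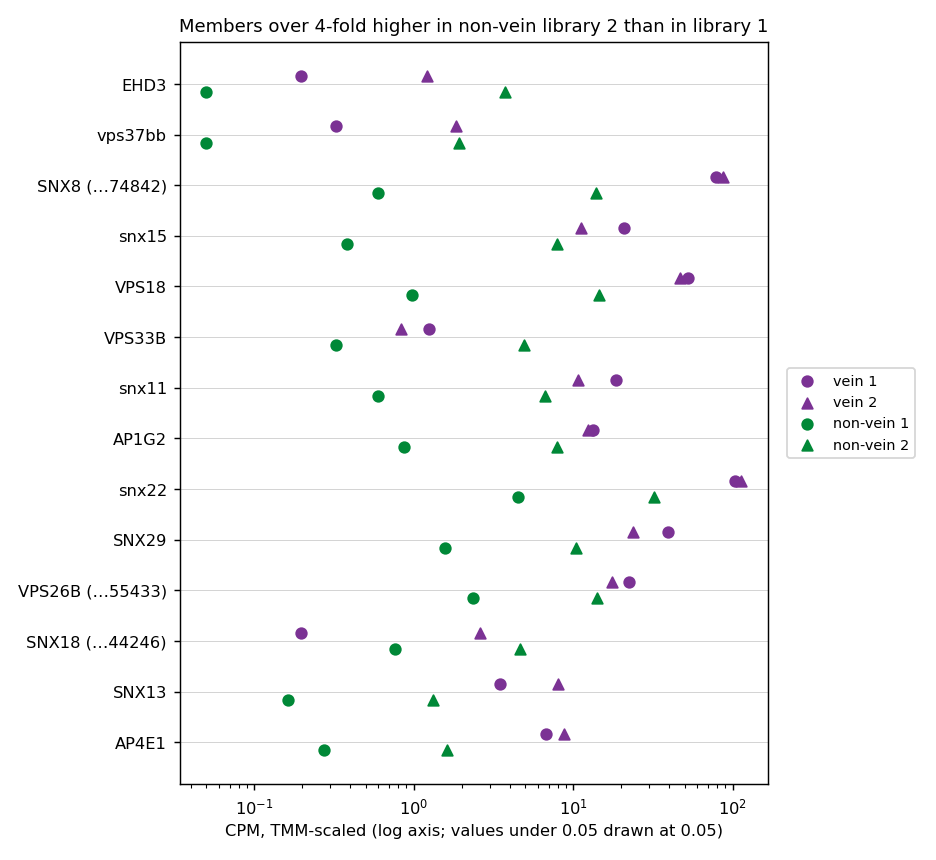
Level in CPM on a log axis of the 14 genes that were over 4-fold higher in non-vein library 2 (green triangles) than in library 1 (green circles), with the vein libraries in purple. In 10 of the 14 genes both vein libraries lie right of both non-vein libraries.

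Other genes of the coat and sorting machinery that the name rule does not catch, such as dynamins, ESCRT-III subunits, the WASH and COMMD complexes and sorting receptors, were counted in the same fit. Of 106 such genes 92 were tested, 12 were higher in vein and 0 lower (31 and 4 at an unadjusted p under 0.05), and the median log2 fold was 0.86. That is 13% higher, beside 4.11% higher and 7.33% lower over all tested genes, whose median was 0.01, and at the unadjusted p 33.7% higher and 4.35% lower, beside 12.3% and 17.7% over all. DESeq2 called 23 of them higher and 3 lower. PICALM (ENSDARG00000012866), which sets the size of coated pits, had 61.7 and 78.3 CPM in vein against 18.8 and 20.8 CPM in non-vein and rose 3.53-fold (edgeR, adjusted p = 0.025). AAK1 (ENSDARG00000011855), the kinase that phosphorylates the medium subunit of AP-2, had 30.4 and 19.6 CPM in vein against 3.37 and 1.83 CPM in non-vein and rose 9.59-fold (edgeR, adjusted p = 0.0335). The ESCRT-III genes CHMP1B, CHMP2A, CHMP2B (ENSDARG00000002190) and chmp4ba rose 2.44-fold, 2.90-fold, 2.56-fold and 2.88-fold (edgeR, adjusted p = 0.0218, 0.0167, 0.0468 and 0.0203). CHMP2A had 310 and 307 CPM in vein against 102 and 111 CPM in non-vein. washc2c, the WASH subunit that binds VPS35, had 33.0 and 34.1 CPM in vein against 5.33 and 9.71 CPM in non-vein and rose 4.46-fold (edgeR, adjusted p = 0.0494), and CCDC22, a partner of retriever, rose 4.63-fold (edgeR, adjusted p = 0.0292). The others were both dab2 genes, ARRB2 (ENSDARG00000011545) and SH3GL1 (ENSDARG00000002642), with log2 folds of 1.66 to 3.11. Both dab2 genes are also among the vein and lymphatic markers above, so they are counted as higher in both lists. Without vein library 1 there were 4 genes of the list higher and without non-vein library 1 there were 5.

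Of the 10 genes that the filter left out, 6 had no count in any library. These were AP3B2, epn1b, EPN3, snx10b, EHD2 (ENSDARG00000035137) and SNX19 (ENSDARG00000061101). AP1M2 had 0 counts in vein and 4 and 33 in non-vein, and AP1S3 had 0 and 22 in vein and 0 in non-vein. SNX8 (ENSDARG00000078057) and VPS72 (ENSDARG00000088567) had at most 32 counts in a library.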

How the data were processed

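RNA was sequenced from sorted endothelial cells of the caudal hematopoietic tissue in 4 libraries, 2 of each group, grouped by their titles. Estimated counts per gene were deposited by the authors in columns that carry the word fpkm per the file headers, but they hold whole numbers with totals that differ between libraries, so they were treated as counts. FPKM values, scaled by the authors to transcript length and library total, came from a second deposited table and served for levels between genes and for alternatives. Per the submitters' processing notes the build was GRCz11, and the tools, whose roles are not listed, were RSEM, StringTie 1.3.1, DESeq2, HISAT2, Bowtie2 2.2.8 and fastp 0.18.0.

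Names came from a table given with the data, which gives 23608 Ensembl identifiers a symbol. It gives paralogs the same human-style name, so the identifier is added where a name is shared. The genes, classes and lists were chosen with earlier results of these data known. List symbols were matched as written or without a final paralog letter, and names shared by more than 3 identifiers were left out; of 106 symbols for the other coat and sorting genes 103 matched.

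After filterByExpr (minimum count 10) and TMM scaling, all 15953 genes left were tested in R 4.3.3 with edgeR 4.0.16, using its quasi-likelihood test (legacy estimation, not robust), calling genes at a Benjamini-Hochberg adjusted p under 0.05. CPM are TMM-scaled. The common biological coefficient of variation was 0.699. A standard error is the size of the log2 fold over the root of F, and intervals are 95% intervals from it. Where vein had 0 counts, the bound sets 3 counts over the group. Alternatives tried were DESeq2 1.42.0, edgeR with library totals or with DESeq2's size factors, no filter, at least 50 counts in 2 libraries, edgeR's version 4 method, robust estimation, limma (3.58.1) on log2(FPKM + 1) and log2(FPKM + 0.1) for genes with a mean of at least 1 FPKM, the first of these without that filter, limma-voom, the replicate number as a block, and each library left out. The fit was also run on simulated counts drawn from the dispersion it had fitted. That run checks the code and cannot show that the calls hold in these data.

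Genes were named where they passed the test or encode a clathrin chain, where they were among the 2 most abundant of a class by mean FPKM, and where they had the highest or lowest fold of a class. Others of the 117 were named after their values were seen.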

Additional observations from a re-analysis of the deposited data

How the results depend on the processing

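The 12 genes that passed had positive folds in all 16 alternatives, and 6 of them passed in each. In 4 of the alternatives a group holds 1 library, and calls kept there are no support for a difference. For all 12 genes both vein libraries lay above both non-vein libraries, so the sign of their folds was largely fixed beforehand. Genes of the set called higher numbered 12, against 23 in DESeq2 and 20 with edgeR's version 4 method. They numbered 8 in limma on log2(FPKM + 1) without a filter, where AP1B1, SNX5, SNX7 and SNX9 did not pass. Those called lower numbered 0, against 4 in DESeq2 and 2 with version 4 and with at least 50 counts. They numbered 1 without a filter on counts, in limma-voom and in filtered limma on log2(FPKM + 1) or log2(FPKM + 0.1). Adaptor genes called higher went to 4 in DESeq2 and 1 in unfiltered limma on FPKM (1 to 2 with a library left out), and those called lower to 2 in DESeq2, 1 in each of unfiltered counts, version 4, limma on FPKM with either pseudocount and limma-voom, and 0 to 1 with a library left out. Sorting genes called higher went to 17 in DESeq2, 16 in version 4, 13 in limma-voom and 5 in unfiltered limma on FPKM (4 to 12 with a library left out), and those called lower to 2 in DESeq2 and with at least 50 counts and 1 in version 4. The other coat and sorting genes called higher went to 23 in DESeq2, 21 in version 4 and 5 in unfiltered limma on FPKM (4 to 12 with a library left out), and those called lower to 3, 2 without a filter and 1 with at least 50 counts. Over all genes, 1676 were higher in DESeq2, 1092 without a filter, 1332 in version 4, 1163 in limma on log2(FPKM + 1), 333 in the same without a filter and 1026 in limma-voom (408 to 942 with a library left out), and 2371, 1881, 2137 and 1769 were lower in DESeq2, version 4 and limma with a pseudocount of 1 and 0.1 (622 to 1313 with a library left out).

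The median log2 fold of the set was 0.35 in unfiltered limma on FPKM and 0.48 to 0.78 with a library left out. That of the coat was 1.37 with at least 50 counts, 1.24 and 1.25 in limma with a pseudocount of 1 and 0.1, 0.58 in the same without a filter, 1.45 in limma-voom and 0.46 to 1.88 with a library left out. That of the adaptors was 0.072 and 0.073 with a pseudocount of 1 and 0.1, -0.064 without a filter and 0.032 to 0.302 with a library left out, and that of the sorting genes was 0.53 in unfiltered limma on FPKM. The median of all genes was -0.09 with library totals and -0.14 in limma on log2(FPKM + 0.1), and lay between -0.28 without vein library 2 and 0.12 without non-vein library 2 when a library was left out. The cause was not tested.

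With the replicate number as a block, 9 genes of the set were higher (SNX5, SNX7 and SNX9 did not pass), with 5 sorting genes, 7 of the other coat and sorting genes, 716 genes lower over all and a coat median of 1.42. The deviations of same-numbered libraries correlated at r = 0.042, which with 2 libraries a group is a single value, and the labels do not say what a number marks, so it was not taken as a pairing. With 2 libraries a group, genes of low count carry wide intervals, and a p that missed the threshold does not show that values did not differ.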
